A study of Mus musculus with 20 samples.

Results

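The comparison described here asks where the effect of the Raptor genotype on gene expression differed between 2 settings, cultured lineage-negative marrow cells given M-CSF and freshly sorted granulocyte-macrophage progenitors (GMPs). For each gene the CreER-Raptor minus WT difference in GMPs was subtracted from the same difference in the M-CSF cultures, and the result is called the interaction. A positive interaction means that the genotype difference was higher in the cultures than in GMPs, whatever its sign in either. It rests on 14 of the 20 arrays of the study and covers all 22180 genes with a probe set of their own, of which 16638 were bright enough to be tested.

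All mice were female on a C57BL/6 background. The study hybridized RNA of 2 genotypes, wild type (WT) and CreER-Rptor-flox/flox (CreER-Raptor in the sample names), in which a Cre recombinase fused to an estrogen receptor can excise the floxed Rptor gene once its ligand is given. The labels do not state whether or when a ligand was given, which promoter drives CreER, whether WT mice carried it, or the ages. GMPs were sorted from bone marrow and lysed fresh, with 3 arrays per genotype. Lineage-negative (Lin-) marrow cells, sorted for lack of markers of mature blood cells, were kept in culture for 12 h with 10 ng/ml M-CSF, with 4 arrays per genotype. The labels name no Lin- cells without M-CSF and no GMPs with it, so cell composition, culture, M-CSF and the sort cannot be told apart in any difference between the settings. Nothing in the labels says that replicates came from separate mice, so p-values reflect only how these samples spread, and that spread may be technical. The 6 arrays of common myeloid progenitors (CMPs), an earlier stage, entered the fit and give a further set of genotype differences. They shared in the estimate of spread and in the filter on dim genes, so they are not independent of the calls. Whether they came from other mice than the GMPs is not known here.

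Raptor, the product of Rptor, is the scaffold that brings substrates to the kinase mTOR in mTOR complex 1 (mTORC1), which drives protein, lipid and nucleotide synthesis and restrains autophagy when nutrients and growth factors are present. M-CSF acts through the receptor Csf1r, directs progenitors towards monocytes and macrophages, and feeds into mTORC1 through PI3K and Akt. GMPs are committed to granulocytes and monocytes, and in mice the transcription factor Irf8 favours the monocyte path and Cebpe the granulocyte path.

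Arrays of a group spread more in the cultures, where the median SD over genes was 0.19 log2 units against 0.13 in GMPs. Defining GMP transcripts were bright in sorted WT GMPs, with Mpo at 12.85 and Elane at 12.56 (log2 signal, means of 3 arrays), and the T and B cell transcripts Cd3e (4.79) and Cd79a (4.78) were dim there. In the WT cultures these read 7.54 and 6.82, so the Lin- cultures held lymphoid transcripts. The array of WT Lin- + MCSF replicate 3 stood apart: 160 tested genes read over 1 log2 unit above the other WT cultures, against 16 to 26 on the other 3 arrays of its group. They included 13 of 21 genes of mature neutrophils. The Rptor probe set did not separate the genotypes, and its interaction was -0.01 ± 0.17 (SE, limma adjusted p = 0.984). Whether that probe set covers the excised part was not examined, so it does not check the labels. Interactions of Mtor (0.15) and Rictor (0.06) did not pass the test either.

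The genotype effect differed between the settings for 793 of 16638 genes (4.77%) at a limma adjusted p under 0.05, with 488 positive (2.93%) and 305 negative (1.83%) interactions. Without WT GMP replicate 2 the count was 488, with 301 positive and 187 negative. In each setting alone, 2088 genes (12.5%) differed by genotype in the cultures and 1980 (11.9%) in GMPs, or 1256 in GMPs without CreER-Raptor GMP replicate 2 and 1183 without WT GMP replicate 2. Over all tested genes the median interaction was 0.01 and the estimates had a median SE of 0.18 log2 units. The genotype effects of the 2 settings, which share no array, had a Pearson correlation of 0.40 and a Spearman correlation of 0.32 over 16638 genes, which are not independent of each other. Of 1253 genes that fell in GMPs, 386 also fell in the cultures, 27 rose there and 840 did not pass. Of 727 genes that rose in GMPs, 241 also rose in the cultures, 16 fell and 470 did not pass. The difference had the same sign in the cultures for 80% of the genes that fell in GMPs and for 79.5% of those that rose, and 43 of the genes with a called interaction were called in opposite directions.

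**Figure D1:**
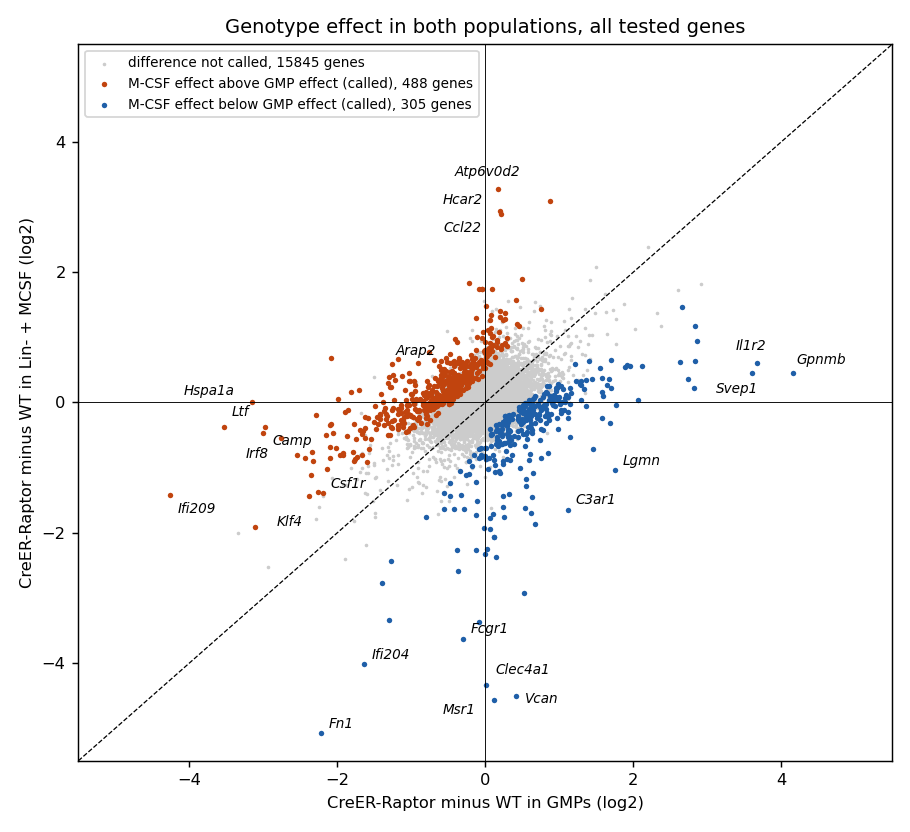
CreER-Raptor minus WT in log2 units in GMPs (horizontal axis, 3 against 3 arrays) and in Lin- + MCSF cultures (vertical axis, 4 against 4 arrays) for each of 16638 tested genes. Genes with a called interaction lie away from the dashed line of equal effects, 488 above it and 305 below it, and some named genes lie along a single axis, such as Msr1 on the vertical and Ltf near the horizontal.

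The largest negative interactions included transcripts of the macrophage surface and matrix. Vcan, which encodes the matrix proteoglycan versican, read 8.27, 8.22, 7.95 and 8.43 on the WT culture arrays and 3.55, 3.63, 3.98 and 3.71 on the CreER-Raptor ones. In GMPs it read 3.81, 3.45 and 3.68 in WT and 3.99, 4.20 and 3.97 in CreER-Raptor cells. The CreER-Raptor cultures thus read about as low as GMPs of either genotype, and the WT cultures stood apart from the other 3 groups. It fell by 4.50 ± 0.11 (SE) in cultures, rose by 0.41 ± 0.13 in GMPs (limma adjusted p = 0.0409) at the dim end of the array, and had an interaction of -4.91 ± 0.17 (limma adjusted p = 2.42e-14).

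Msr1, the macrophage scavenger receptor for modified lipoproteins, showed the same layout. It read 8.27, 7.84, 8.89 and 8.11 in WT cultures and 3.68, 3.99, 3.61 and 3.57 in CreER-Raptor cultures, against 3.22 to 3.91 over the 6 GMP arrays. No culture array of one genotype reached the range of the other, and the interaction was -4.67 ± 0.28 (adjusted p = 1.04e-09). Clec4a1, a C-type lectin of dendritic cells and monocytes, read 8.44 to 8.70 in WT cultures and 4.15 to 4.32 in CreER-Raptor cultures. Its 6 GMP arrays lay between 3.87 and 4.07, and its interaction was -4.35 ± 0.14. The Fc receptor Fcgr1 (-3.33), the lectin Clec4a3 (-3.27), the membrane protein Ms4a4a (-3.45) and the lipoprotein lipase cofactor Apoc2 (-2.51) also had negative interactions. Of these Ms4a4a was dim in WT GMPs, at a mean of 3.40, while Fcgr1 read 5.45, Clec4a3 4.88 and Apoc2 5.69.

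Vcan, Msr1 and Clec4a1 were near the dim end of the array in GMPs, where the filter on dim genes stood at a log2 mean of 3.86, so a fall there could not have been seen for them. Of 111 genes that fell in the cultures, did not pass in GMPs and had a called negative interaction, 44 had a WT GMP mean below the median of all probe sets (4.83), against 7 for the WT cultures. Their median WT level was 5.27 in GMPs and 7.14 in cultures, and the median in CreER-Raptor cultures was 5.72. Other genes of the class were read well above that level in both settings: Tgfbi, a secreted matrix protein of monocytes, lay between 9.07 and 9.18 in WT GMPs and between 9.96 and 10.26 in WT cultures. It fell by 1.42 in the cultures, differed by -0.33 in GMPs without passing (0.194) and had an interaction of -1.09 ± 0.20 (limma adjusted p = 0.00229).

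Fn1, encoding fibronectin, fell in both settings and by more under M-CSF. In cultures it read 10.03, 9.77, 10.54 and 9.91 in WT and 4.96, 4.76, 5.20 and 5.04 in CreER-Raptor cells. In GMPs it read 9.17, 9.01 and 9.36 in WT and 6.82, 7.24 and 6.81 in CreER-Raptor cells. The genotypes did not overlap in either setting, Fn1 fell by 5.07 ± 0.15 in cultures and fell by 2.22 ± 0.17 in GMPs, and the interaction was -2.85 ± 0.22 (adjusted p = 5.42e-08). In all, 8 genes fell in both settings with a called negative interaction; 4 further members, chosen after their values were seen, were the RNA sensor Tlr8 (-2.77 in cultures and -1.39 in GMPs), the calcium-binding protein Aif1 (-2.44 and -1.28), the protease Ctsc (-1.39 and -0.56) and the lysosomal thiol reductase Ifi30 (-1.24 and -0.49).

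**Figure D2:**
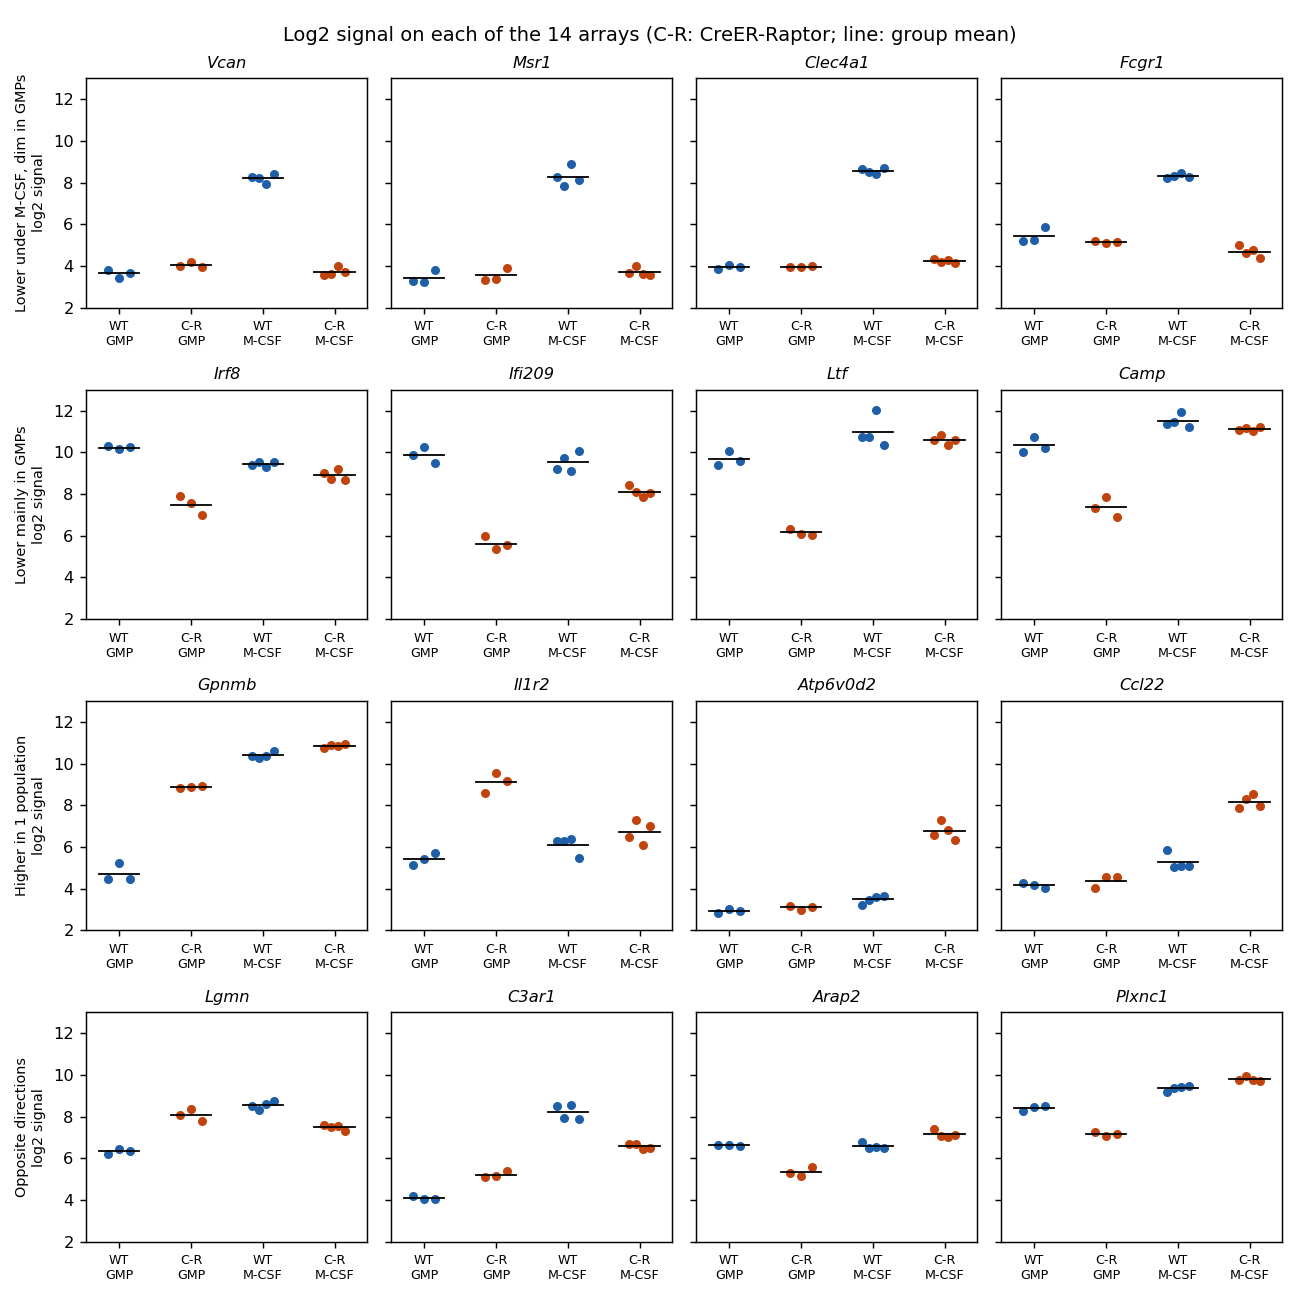
Log2 signal of 16 genes on each of the 14 arrays, WT in blue and CreER-Raptor (C-R) in red, with a line at each group mean. In the top row only the WT M-CSF cultures are high, and in the second row the genotypes lie far apart in GMPs and closer together under M-CSF. The third row holds genes that differ by genotype mostly in 1 setting, and in the bottom row the genotype order turns between the settings.

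Lipid-handling genes had negative interactions in 7 of 30 tested members (23.3%, against 1.83% of all genes) and positive ones in 0, with a median interaction of -0.27 against 0.01 over all genes. In GMPs 9 members rose and 1 fell, where 4.37% and 7.53% of all genes did. In cultures 2 rose and 7 fell, where 6.82% and 5.73% of all genes did. The median effect of the list was 0.11 in GMPs and 0.05 in cultures. The scavenger receptor Cd36 fell by 2.06 in cultures, where WT arrays read 7.14, 5.98, 7.95 and 5.51 and CreER-Raptor arrays 4.37 to 4.99, and its GMP arrays lay between 3.57 and 4.11. Lpl, lipoprotein lipase, fell by 2.27 in cultures, from 6.86, 6.15, 8.24 and 5.99 to between 4.30 and 5.00. The highest value of each was WT Lin- + MCSF replicate 3. Without that array the interaction went from -2.17 to -1.73 for Cd36 and from -1.88 to -1.40 for Lpl, and both stayed called (limma adjusted p = 0.00781 and 0.00285). The call of Lpl was lost without WT GMP replicate 1 or CreER-Raptor GMP replicate 2 (up to 0.0666). Pparg, a nuclear receptor that governs lipid uptake, had an interaction of -0.67, whose call was lost without either of 2 arrays (up to 0.0666). Over the settings tried, 4 to 8 members of the list were negative.

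Other genes fell by more in GMPs than under M-CSF, among them the monocyte regulators Irf8 and Csf1r. Irf8 read 10.28, 10.15 and 10.25 in WT GMPs and 7.88, 7.56 and 6.97 in CreER-Raptor GMPs. In cultures it read 9.38, 9.56, 9.30 and 9.54 in WT and 9.02, 8.74, 9.18 and 8.66 in CreER-Raptor cells. The genotypes were apart in both settings. Irf8 fell by 2.76 ± 0.18 in GMPs and fell by 0.54 ± 0.16 in cultures, and the interaction was 2.21 ± 0.24 (limma adjusted p = 3.95e-06). Averaged over its probe sets it was 1.73.

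Csf1r, the M-CSF receptor, fell in both. It read 9.51, 9.50 and 9.42 in WT GMPs and 7.36, 7.32 and 7.15 in CreER-Raptor GMPs, against 9.78 to 9.98 in WT cultures and 8.46 to 8.61 in CreER-Raptor cultures. Csf1r fell by 2.20 ± 0.11 in GMPs and fell by 1.39 ± 0.09 in cultures, and the interaction was 0.80 ± 0.14 (adjusted p = 0.00151). Klf4, another transcription factor of monocytes, fell by 2.28 in GMPs and 1.79 in cultures, and the difference of 0.50 did not pass (limma adjusted p = 0.196). The beta-glucan receptor Clec7a fell by 2.54 in GMPs and 0.81 in cultures, with an interaction of 1.73 ± 0.15. The lysosomal nuclease Pld4 (1.11), the pore-forming protein Mpeg1 (0.82) and lysozyme Lyz2 (0.65) also had positive interactions.

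The monocyte and macrophage list thus split: of 34 tested members, 11 had a negative and 6 a positive called interaction (50%, against 4.77% of all genes), and the median was -0.35. In the cultures 24 members fell and 0 rose, where 5.73% and 6.82% of all genes did. In GMPs 13 fell and 3 rose, where 7.53% and 4.37% of all genes did. The 6 positive members were Irf8, Csf1r, Clec7a, Pld4, Mpeg1 and Lyz2, all of which fell in both settings and by more in GMPs. Without WT Lin- + MCSF replicate 3 the counts were 10 negative and 6 positive. Over the settings tried, the positive count stayed at 6 and the negative count ranged from 7 to 12. The log2 summed signal of the list ran from 14.27 to 14.32 in WT GMPs, 13.48 to 13.57 in CreER-Raptor GMPs, 14.62 to 14.82 in WT cultures and 14.04 to 14.11 in CreER-Raptor cultures, with no overlap between genotypes in either setting. In bulk RNA, fewer cells of a type and less RNA per cell cannot be told apart.

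The secondary granule genes Ltf, Camp and Ngp fell in GMPs and did not pass in the cultures. Ltf, lactoferrin, read 9.41, 10.06 and 9.58 in WT GMPs and 6.33, 6.09 and 6.05 in CreER-Raptor GMPs. In cultures it read 10.74, 10.74, 12.01 and 10.37 in WT and 10.58, 10.83, 10.36 and 10.58 in CreER-Raptor cells. The GMP groups were far apart and the culture groups overlapped, with an interaction of 3.15 ± 0.36 (limma adjusted p = 8.2e-06). Camp, the cathelicidin peptide, fell by 2.97 in GMPs and differed by -0.38 in cultures without passing (0.216), and Ngp, another granule protein, fell by 1.18 and differed by -0.10 without passing. Their interactions were 2.59 and 1.08. Unlike Ltf, Camp did not overlap between genotypes in cultures, at 11.21 to 11.91 in WT and 11.03 to 11.19 in CreER-Raptor cells. Without WT Lin- + MCSF replicate 3, which carried the highest Ltf value, the interaction of Ltf was 3.50.

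Not every neutrophil gene followed them. S100a8 rose by 0.51 in GMPs and differed by -0.05 in cultures without passing (interaction -0.55, limma adjusted p = 0.0386). Anxa1 rose by 0.72 in GMPs and differed by -0.18 in cultures without passing (-0.90, limma adjusted p = 0.0303). Their calls were lost without any of 10 and of 7 single arrays (up to 0.117 and 0.0795). The chitinase-like protein Chil3 rose by 1.91 in GMPs and by 0.57 in cultures, an interaction of -1.34 ± 0.28 (limma adjusted p = 0.00527). Ly6g, the neutrophil surface protein, fell by 3.33 in cultures, and its GMP difference of -1.31 did not pass (0.0539). Its WT cultures read 7.34, 7.62, 9.84 and 7.18, and its call on the interaction (-2.03, adjusted p = 0.044) was lost when any of 9 single arrays was left out, with values up to 0.122. Of 21 tested members of the secondary granule and mature neutrophil list, 5 rose and 5 fell in GMPs and 1 rose and 3 fell in cultures. Of all genes 4.37% rose and 7.53% fell in GMPs, and 6.82% rose and 5.73% fell in cultures. The list had 3 positive and 4 negative interactions (33.3%, against 4.77% of all genes), and over the settings tried 3 positive and 1 to 5 negative ones. The summed signal of the list was as high as 15.69 on WT Lin- + MCSF replicate 3 and at least 14.62 on the other WT cultures. Leaving that array out gave 3 positive and 3 negative interactions. It also changed the calls in cultures to 4 that rose and 2 that fell, and those in GMPs to 7 and 7. The median effect of the list in cultures went from -0.10 to 0.08. The part of that array in these results was not tested further.

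Further genes that fell in GMPs and had large positive interactions were the cytokine receptor Il31ra, the lectin Mgl2 and the actin-binding protein Cnn3. Il31ra read 8.83, 8.84 and 8.72 in WT GMPs and 5.73, 5.84 and 5.82 in CreER-Raptor GMPs, while the culture groups overlapped between 5.36 and 6.47. Its interaction was 2.53 ± 0.29 (limma adjusted p = 8.2e-06). Mgl2 fell by 2.09 in GMPs, and its interaction of 2.77 was 2.39 without WT Lin- + MCSF replicate 3, the lowest WT culture (5.78). Cd34, a surface marker of early progenitors, fell by 1.37 in GMPs and differed by -0.13 in cultures without passing, with an interaction of 1.24 ± 0.20. The hexokinase Hk3 fell by 1.38 in GMPs, differed by 0.01 in cultures and had an interaction of 1.39.

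The largest positive interaction by size, that of the heat shock gene Hspa1a (3.16 ± 0.83, limma adjusted p = 0.0306), was also among the least certain. It read 5.32, 8.60 and 6.81 in WT GMPs, against 3.80, 3.59 and 3.89 in CreER-Raptor GMPs and 3.89 to 4.69 over the 8 culture arrays. WT GMPs therefore differed among themselves by more than 3 log2 units. Leaving out any of 7 single arrays ended the call, with adjusted p up to 0.107 and an interaction of 2.31 to 3.95. Fosb, an immediate early transcription factor, had a like layout, with 6.25, 7.07 and 7.70 in WT GMPs and 5.61 to 5.75 in CreER-Raptor GMPs, and a call that ended without GMP replicate 2 of either genotype or WT GMP replicate 3 (interaction 1.61, adjusted p = 0.0202, up to 0.0745 without 1 array).

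Genes that rose under M-CSF and not in GMPs were led by Atp6v0d2, a subunit of the lysosomal proton pump that is abundant in macrophages and osteoclasts. It read 3.23, 3.45, 3.62 and 3.65 in WT cultures and 6.60, 7.31, 6.80 and 6.33 in CreER-Raptor cultures, while all 6 GMP arrays lay between 2.84 and 3.17. Only the CreER-Raptor cultures stood above the dim end of the array. The rise was 3.27 ± 0.15 in cultures, the difference in GMPs 0.17 ± 0.17 and the interaction 3.11 ± 0.22 (limma adjusted p = 1.72e-08).

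The niacin receptor Hcar2 and the chemokine Ccl22 followed. Hcar2 read 5.59 to 6.74 in WT cultures and 8.34 to 9.62 in CreER-Raptor cultures, with GMP arrays between 4.73 and 5.23. Ccl22 read 5.04 to 5.85 in WT cultures and 7.86 to 8.52 in CreER-Raptor cultures, with GMP arrays between 4.01 and 4.57. Neither overlapped between genotypes in the cultures, and the interactions were 2.74 ± 0.38 and 2.68 ± 0.27 (limma adjusted p = 0.000118 and 1.52e-06). The orphan nuclear receptor Nr4a3 had an interaction of 1.79 ± 0.25, and the chemokines Ccl3 (0.81) and Ccl4 (0.89) and the chemerin receptor Ccrl2 (1.01) lay in the same class of 142 genes. The calls of Ccl3 and Ccl4 were each lost without single arrays, with adjusted p up to 0.0809 and 0.0844.

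Kit, the stem cell factor receptor, rose in cultures by 0.99, from 9.12, 9.18, 8.74 and 8.73 to between 9.89 and 9.97. In GMPs it read 10.72, 10.67 and 10.89 in WT and 11.03, 11.16 and 10.95 in CreER-Raptor cells, a difference of 0.29 that did not pass. Its interaction was 0.70 ± 0.15 (limma adjusted p = 0.00816). Of 22 tested stem and multipotent progenitor genes, 5 had positive and 1 a negative interaction, (27.3% called, against 4.77% of all genes), with a median of 0.41. In cultures 13 rose and 1 fell, and in GMPs 3 rose and 3 fell, where 6.82% and 4.37% of all genes rose. Over the settings tried 4 to 7 were positive. The positive members were Kit, Cd34, the transcription factor Runx1, the angiopoietin receptor Tek and its ligand Angpt1, and the negative one was the cytokine receptor Flt3. Flt3 rose by 1.30 in GMPs and differed by 0.26 in cultures without passing (interaction -1.04, adjusted p = 0.0107). With the mean of its probe sets Angpt1 no longer passed, and its call and that of Tek were lost without single arrays (up to 0.101 and 0.0627).

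The T cell receptor components Cd3d and Cd3g, dim in GMPs, rose in cultures by 1.11 and 0.92, with interactions of 1.08 and 0.93 (limma adjusted p = 0.0133 and 0.0189). The call of Cd3d was lost without WT GMP replicate 2 (0.0558) and that of Cd3g without CreER-Raptor GMP replicate 1 (0.0502). Of 27 tested T, NK and B cell genes 8 rose in cultures, where 6.82% of all genes rose. The list had 4 positive interactions (14.8%, against 2.93% of all genes), or 2 to 6 over the settings tried. The summed signal of that list was 13.03 to 13.34 in WT cultures and 13.36 to 13.68 in CreER-Raptor cultures. It was 12.40 to 12.47 in WT GMPs and 11.78 to 11.97 in CreER-Raptor GMPs. The genotypes thus did not overlap in either setting and their order turned. In GMPs 1 member rose and 2 fell, where 4.37% and 7.53% of all genes did. The part of lymphoid cells in the other culture results was not tested.

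Gpnmb led the genes that were called higher in GMPs and not called in cultures. It encodes a lysosomal and surface glycoprotein of macrophages and is a known target of the MiT/TFE transcription factors, which mTORC1 holds out of the nucleus. It read 4.48, 5.22 and 4.46 in WT GMPs and 8.82, 8.90 and 8.91 in CreER-Raptor GMPs. In cultures it read 10.35, 10.29, 10.38 and 10.62 in WT and 10.76, 10.90, 10.83 and 10.95 in CreER-Raptor cells. The genotypes did not overlap in either setting, and CreER-Raptor cells were higher in both. WT cultures were thus already above the CreER-Raptor GMPs, the rise of 4.16 ± 0.18 in GMPs stood beside a difference of 0.45 ± 0.16 in cultures that did not pass (0.0643), and the interaction was -3.71 ± 0.24 (limma adjusted p = 2.48e-09).

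For other genes that rose chiefly in GMPs, WT cultures did not start high. Svep1, a large matrix protein, read 4.45, 4.46 and 4.70 in WT GMPs and 7.99, 8.29 and 8.13 in CreER-Raptor GMPs, while the cultures lay between 3.84 and 4.51 in WT and between 4.54 and 4.78 in CreER-Raptor cells. It rose in both settings, by 3.60 and 0.45, with an interaction of -3.15 ± 0.19 (limma adjusted p = 1.23e-09), or -1.50 as the mean of its probe sets. Il1r2, the decoy receptor for interleukin-1, rose by 3.67 in GMPs, from between 5.16 and 5.73 to between 8.61 and 9.56. Its culture groups overlapped between 5.48 and 7.28, and its interaction was -3.06 ± 0.46. The endothelial lipase Lipg (-2.38) and the insulin receptor substrate Irs2 (-1.31 ± 0.19) behaved alike in call: higher in GMPs and not called in cultures.

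Of 11 genes that rose in both settings and by more in GMPs, Cd33 and Cntnap1, chosen after their values were seen, rose by 2.86 and 2.83 in GMPs and by 0.94 and 1.16 in cultures. In the reverse class, higher in both and by more in cultures, there were 3 genes, of which Cdo1 and Tmem215, named on the same footing, had interactions of 0.73 and 0.69. The remaining gene was a predicted one, which is not named. Without WT GMP replicate 2 the adjusted p of Cdo1 was 0.0536, and without GMP replicate 1 of either genotype that of Tmem215 reached 0.0949.

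Genes called in opposite directions numbered 43, of which 16 rose in GMPs and 27 fell there. The counts were 9 and 16 without WT GMP replicate 2, 10 and 16 without WT GMP replicate 3, and 14 and 16 without CreER-Raptor GMP replicate 1. They were 12 and 39 without CreER-Raptor GMP replicate 3, and 36 and 42 with array weights. Of the 16, 6 had a WT GMP mean below the median of all probe sets (4.83), C3ar1 and Vcan among them. The 16 genes rose in GMPs and fell under M-CSF, and they included the lysosomal asparaginyl protease Lgmn, the complement receptor C3ar1, the complement subunit C1qb and apolipoprotein Apoe. Lgmn read 6.22, 6.45 and 6.35 in WT GMPs and 8.10, 8.36 and 7.82 in CreER-Raptor GMPs. In cultures it read 8.49, 8.33, 8.60 and 8.73 in WT and 7.59, 7.52, 7.58 and 7.32 in CreER-Raptor cells. The genotypes did not overlap in either setting and their order turned. Lgmn rose by 1.75 ± 0.17 in GMPs and fell by 1.04 ± 0.15 in cultures, and the interaction was -2.79 ± 0.22 (limma adjusted p = 6.92e-08).

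C3ar1 read 4.21, 4.03 and 4.05 in WT GMPs and 5.09, 5.16 and 5.39 in CreER-Raptor GMPs, against 7.89 to 8.57 in WT and 6.45 to 6.71 in CreER-Raptor cultures. Its interaction was -2.76 ± 0.22. C1qb rose by 1.46 in GMPs and fell by 0.72 in cultures, Apoe rose by 0.77 and fell by 0.42, and the stress-induced regulator Nupr1 rose by 0.65 and fell by 1.08. Others of the class, chosen after their values were seen, were the lipoprotein-associated phospholipase Pla2g7 (0.67 in GMPs and -1.87 in cultures), the endocytic receptor Lrp1 (0.85 and -0.78), the matrix protein Emilin2 (0.76 and -0.86), the surface receptor Slamf7 (1.14 and -0.53) and the pattern receptor Tlr2 (0.57 and -0.56).

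The other 27 fell in GMPs and rose under M-CSF. Arap2, a regulator of small GTPases, read 6.63, 6.65 and 6.57 in WT GMPs and 5.30, 5.18 and 5.60 in CreER-Raptor GMPs, against 6.76, 6.49, 6.53 and 6.51 in WT and 7.40, 7.06, 7.03 and 7.13 in CreER-Raptor cultures. WT levels were close in the settings and the genotype difference turned, from -1.26 ± 0.12 to 0.58 ± 0.10 (interaction 1.84 ± 0.15, limma adjusted p = 1.4e-07). The semaphorin receptor Plxnc1 fell by 1.25 in GMPs and rose by 0.42 in cultures, and the membrane-bending protein Fnbp1l fell by 1.18 and rose by 0.67. The integrin subunit Itgb3 (-0.51 and 0.62) and the unfolded protein sensor Ern1 (-0.54 and 0.48) were in the same class.

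Promoters are shown for members of 2 lists whose interactions ran in a shared or in a split direction. For the G2 and mitosis list the CCAAT box and the cell cycle homology region TTTGAA are in capitals, and for the Ifi200 genes the interferon response element (TTTC, 2 free bases and TTTC), each searched on both strands, so that ATTGG and TTCAAA count as well. Each sequence runs 5′ to 3′ on the gene's strand from 250 bases before to 50 after the start (RefSeq, GRCm38.p6). They are Kif23 (chr9:61946750-61947049, minus strand), Ckap2l (chr2:129297163-129297462, minus strand), Ifi209 (chr1:173630609-173630908, plus strand), Mndal (chr1:173880138-173880437, minus strand, 1 of 2 entries), Ifi205 (chr1:174031706-174032005, minus strand) and Ifi207 (chr1:173741760-173742059, minus strand).
Kif23: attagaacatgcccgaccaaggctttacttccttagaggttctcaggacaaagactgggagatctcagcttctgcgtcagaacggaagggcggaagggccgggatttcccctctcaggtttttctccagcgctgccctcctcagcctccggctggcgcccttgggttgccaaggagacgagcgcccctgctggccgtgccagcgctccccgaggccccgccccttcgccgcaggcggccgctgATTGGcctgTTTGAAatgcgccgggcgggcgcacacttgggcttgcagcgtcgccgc
Ckap2l: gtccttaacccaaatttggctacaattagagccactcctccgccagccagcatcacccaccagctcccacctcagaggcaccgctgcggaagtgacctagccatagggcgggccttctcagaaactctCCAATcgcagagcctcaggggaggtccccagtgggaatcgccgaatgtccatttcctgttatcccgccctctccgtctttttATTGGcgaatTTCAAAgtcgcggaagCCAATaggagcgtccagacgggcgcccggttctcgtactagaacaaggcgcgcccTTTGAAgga
Ifi209: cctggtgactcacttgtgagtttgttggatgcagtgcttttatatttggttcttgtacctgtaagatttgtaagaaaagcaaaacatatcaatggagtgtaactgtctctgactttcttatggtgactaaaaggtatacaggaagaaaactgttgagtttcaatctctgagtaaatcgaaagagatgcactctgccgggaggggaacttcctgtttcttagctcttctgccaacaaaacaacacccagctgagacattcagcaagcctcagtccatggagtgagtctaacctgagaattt
Mndal: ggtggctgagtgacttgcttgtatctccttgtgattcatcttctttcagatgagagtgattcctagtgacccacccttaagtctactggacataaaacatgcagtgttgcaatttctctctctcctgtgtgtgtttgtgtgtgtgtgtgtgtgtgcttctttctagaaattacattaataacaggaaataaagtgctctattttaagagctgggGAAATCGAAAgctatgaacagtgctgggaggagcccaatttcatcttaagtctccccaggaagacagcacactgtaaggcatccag
Ifi205: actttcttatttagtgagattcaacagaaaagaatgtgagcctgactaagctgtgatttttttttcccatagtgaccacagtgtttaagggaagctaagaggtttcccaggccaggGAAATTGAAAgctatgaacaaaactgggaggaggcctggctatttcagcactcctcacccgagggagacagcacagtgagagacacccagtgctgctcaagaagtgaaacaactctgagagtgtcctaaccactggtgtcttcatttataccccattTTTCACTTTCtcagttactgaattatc
Ifi207: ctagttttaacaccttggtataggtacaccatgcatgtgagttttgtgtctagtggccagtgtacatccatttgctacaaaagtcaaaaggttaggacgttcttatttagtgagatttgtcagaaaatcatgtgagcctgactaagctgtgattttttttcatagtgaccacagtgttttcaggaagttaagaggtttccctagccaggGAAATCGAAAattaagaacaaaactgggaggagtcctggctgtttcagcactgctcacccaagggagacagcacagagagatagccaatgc

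Many genes of G2 and mitosis fell. Of 53 tested, 43 fell in GMPs and 25 in cultures (against 7.53% and 5.73% of all genes), and 50 had an interaction above 0, with a median of 0.26 against 0.01 over all genes, though only 4 interactions passed the test (7.55%, against 2.93% of all genes) and the direction of the list as a whole was not tested. The median effect was -0.61 in GMPs and -0.32 in cultures. The median interaction of the list stayed between 0.17 and 0.30 over the settings tried. Kif23, a kinesin of the dividing cell's midzone, read 9.01, 9.38 and 9.16 in WT GMPs and 7.82, 7.51 and 8.08 in CreER-Raptor GMPs, against 9.07 to 9.24 and 8.69 to 8.94 in cultures. Its interaction was 1.04 ± 0.19 (limma adjusted p = 0.00188).

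The other 3 called members were the spindle proteins Ckap2l (0.76) and Nusap1 (0.64) and the kinetochore protein Cenpf (0.63), whose call was lost without any of 8 single arrays (up to 0.111). The list's promoters held CCAAT in 36 of 48 entries (75.0%, against 37.4% of all 32851 promoters) and TTTGAA in 33 (68.8%, against 17.9%). In the promoter of Kif23 shown above a CCAAT box and a TTTGAA stand side by side, and that of Ckap2l held 3 and 2. The S phase list had 0 called interactions of 45 by limma, with a median of 0.10 and 6 at an unadjusted p under 0.05, and the histone list 0 of 14, with 3. Up to 2 and 1 were called under the alternatives tried.

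Interferon-stimulated genes fell in both settings and split in the interaction. Of 42 tested, 19 fell in GMPs and 19 in cultures, where 7.53% and 5.73% of all genes fell. They had 5 positive and 4 negative interactions (21.4%, against 4.77% of all genes), with a median of 0.17. Over the settings tried the counts ran from 3 to 8 and from 1 to 5. Ifi209, a DNA-binding protein of the Ifi200 family, read 9.86, 10.27 and 9.51 in WT GMPs and 5.97, 5.35 and 5.53 in CreER-Raptor GMPs, against 9.11 to 10.08 and 7.84 to 8.42 in cultures. It fell in both, by 4.26 ± 0.22 in GMPs and 1.43 ± 0.19 in cultures (interaction 2.83 ± 0.30, limma adjusted p = 2.78e-06). Mndal, of the same family, fell by 2.15 and 0.49.

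Neighbours on the same stretch of chromosome went the other way. Ifi204 read 6.80, 7.15, 8.04 and 8.26 in WT cultures and 3.85, 4.03, 2.84 and 3.47 in CreER-Raptor cultures, while its GMP arrays lay between 4.27 and 4.62 in WT and between 2.77 and 2.94 in CreER-Raptor cells. It fell by 4.01 in cultures and 1.64 in GMPs, an interaction of -2.37 ± 0.46 (limma adjusted p = 0.00349). Its WT GMP mean of 4.48 was below the median of all probe sets (4.83). A larger fall of Ifi204 in GMPs may therefore not have been seen. In cultures Ifi205 fell by 1.75 and Ifi207 fell by 1.07, and both were dim in GMPs (3.90 to 4.58), with interactions of -2.01 and -1.20. From Ifi209 to Ifi205 the RefSeq table orders 14 genes, of which 6 were tested here and 5 had a called interaction, 2 positive and 3 negative. Members of this family are alike in sequence, so a probe set may read more than 1 of them. The span was chosen after the values were seen.

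The interferon response element was in 20 of 41 promoter entries of the interferon list (48.8%, against 3.4% of all promoters). It was found in the promoters shown above for Mndal, Ifi205 and Ifi207 and not in that window of Ifi209, so its presence did not separate positive from negative interactions among these 4. The other called members of the list were Parp14 (0.63), Usp18 (0.77) and Gbp7 (1.01) with positive and Parp12 (-0.89) with negative interactions. Those of Usp18, Gbp7 and Parp12 were lost without single arrays, at adjusted p up to 0.135.

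Lysosome and autophagy genes, many of them targets of MiT/TFE factors, had 8 positive and 3 negative interactions among 50 tested (22%, against 4.77% of all genes), with a median of 0.04. The negative members, Gpnmb, the protease Ctsl (-1.02) and Fnip2 (-0.98), the folliculin partner that links amino acids to mTORC1, were called higher in GMPs alone. Fnip2 read 6.52, 6.48 and 6.69 in WT GMPs and 7.69, 7.45 and 7.82 in CreER-Raptor GMPs, and its culture groups overlapped between 8.09 and 8.87. The positive members were mixed: Atp6v0d2 and the GTPase Rragd (0.77) rose in cultures, while the hexosaminidase Hexa (0.87), the transcription factor Mitf (0.64), Ctsh, Atp6v1c1 and Psap fell in GMPs. The remaining member was the autophagy protein Gabarapl1 (0.71), which passed in neither setting alone. Most of the positive calls were lost when single arrays were left out: without any of 12 arrays for Psap (adjusted p up to 0.130), of 10 for Atp6v1c1 (0.123), of 7 for Ctsh (0.0780), of 4 for Gabarapl1 (0.0863) and Rragd (0.0688), and of 2 for Mitf (0.0603). Over the settings tried, the positive count ran from 3 to 10 and the negative count stayed at 3. The E-box core CACGTG was in 13 of 48 promoter entries of the list (27.1%, against 7.2%).

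**Figure D3:**
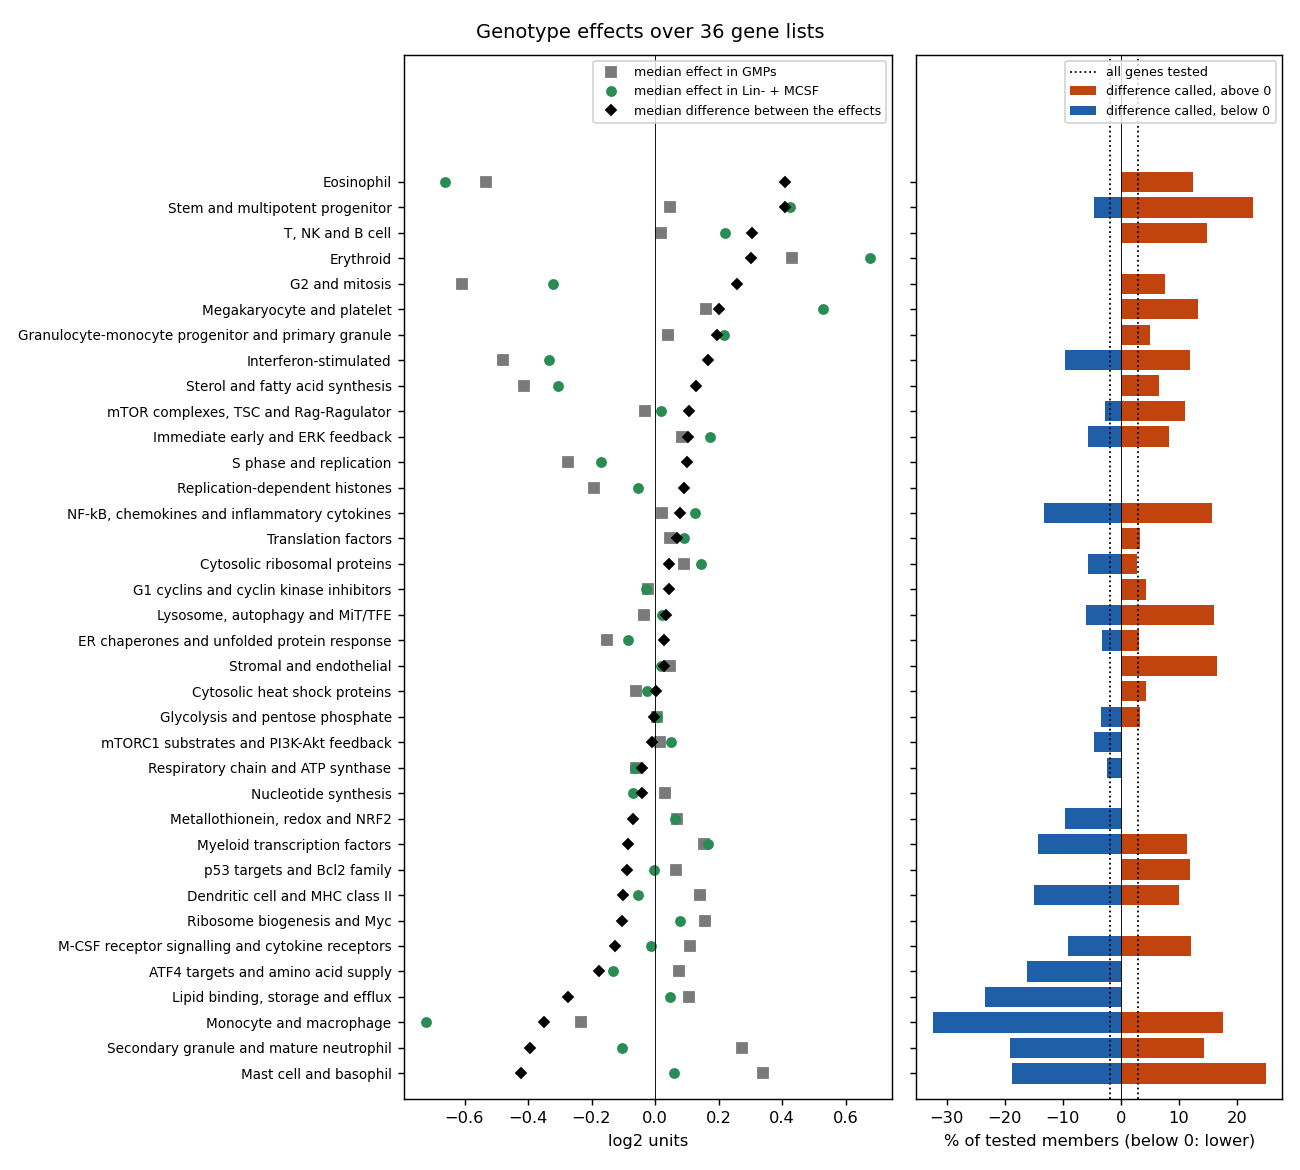
Left, median CreER-Raptor minus WT effect in log2 units of the tested members of 36 gene lists in GMPs (squares) and Lin- + MCSF cultures (circles), with the median interaction (diamonds). Right, the percent of members with a called positive (red) or negative (blue) interaction, beside dotted lines at 2.93% and 1.83% for all genes. Monocyte and macrophage genes have the longest negative bar, and the diamond of the G2 and mitosis list lies at 0.26.

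Genes of amino acid supply under the transcription factor ATF4, which mTORC1 is known to sustain, had negative interactions in 6 of 37 tested members (16.2%, against 1.83% of all genes) and positive ones in 0, with a median of -0.18. Asns, asparagine synthetase, read 9.07, 8.93, 9.08 and 9.03 in WT cultures and 8.14, 8.39, 8.20 and 7.90 in CreER-Raptor cultures, while the GMP groups overlapped between 7.56 and 7.78. It fell by 0.87 ± 0.11 in cultures and differed by 0.01 ± 0.13 in GMPs, an interaction of -0.88 ± 0.17 (limma adjusted p = 0.00272). Psat1, of serine synthesis, fell by 0.70 in cultures with an interaction of -0.64, a call that 7 single arrays ended (up to 0.0774). The other called members were Nupr1, the glutathione-degrading enzyme Chac1 (-0.91), Aldh18a1 (-0.61) of proline synthesis and the tryptophanyl-tRNA synthetase Wars (-0.58). The last 3 were also lost without single arrays, at adjusted p up to 0.142. Over the settings tried the count ran from 2 to 11.

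Other processes tied to mTORC1 had from 0% to 13.9% of members with a called interaction, against 4.77% of all genes. Sterol and fatty acid synthesis genes fell in both settings, 14 of 30 in GMPs and 11 in cultures, where 7.53% and 5.73% of all genes fell. Of their interactions 2 passed (6.67%), both positive. The desaturase Fads2 fell by 1.42 in GMPs and differed by -0.25 in cultures without passing (interaction 1.18 ± 0.24, limma adjusted p = 0.00447). Squalene epoxidase Sqle read 7.81, 7.53 and 7.49 in WT GMPs and 5.84, 6.08 and 5.88 in CreER-Raptor GMPs, and 8.24 to 8.55 against 7.37 to 7.79 in cultures. Its interaction of 0.86 lost its call without any of 7 arrays (up to 0.0939). The sterol regulatory element TCACNCCAC was in 1 of 32 promoter entries of the list (3.1%, against 1.2% of all promoters).

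Ribosome biogenesis had 0 called interactions of 53 by limma at an adjusted p under 0.05, and nucleotide synthesis 0 of 29, with medians of -0.10 and -0.04. At an unadjusted p under 0.05 there were 7 in each list, and the alternatives tried called at most 1 positive in either, and at most 1 and 2 negative. Cytosolic ribosomal proteins had 1 positive and 2 negative of 36 (8.33%), and without WT Lin- + MCSF replicate 3 the counts were 0 and 1. Glycolysis and the pentose phosphate path had 1 each of 30 (6.67%): Hk3, and the glucose transporter Slc2a1 (-0.81), whose call was lost when its probe sets were averaged. The respiratory chain had 1 of 43 (2.33%). Among 36 genes of the mTOR complexes and their regulators 4 had positive and 1 a negative interaction (13.9%): Castor2 (0.84), an arginine sensor homologue, Rragd, and the sestrins Sesn1 (0.62) and Sesn3 (0.75) were positive and Fnip2 negative. The sestrin calls were lost without single arrays, at adjusted p up to 0.142. Of 22 mTORC1 substrates and feedback genes only Irs2 was called.

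Cytokine receptors and transcription factors were called in both directions, at 21.2% and 25.7% against 4.77% of all genes. Of 33 tested receptor and M-CSF signalling genes 4 had positive interactions (Il31ra, Csf1r, Kit and the feedback inhibitor Cish) and 3 negative ones (Flt3 and the beta chains Csf2rb, -0.77, and Csf2rb2, -1.05). Csf2rb rose by 0.60 in GMPs and differed by -0.16 in cultures without passing. The call of Csf2rb2 was lost without any of 4 arrays (up to 0.0725). The call of Cish was lost with the mean of its probe sets and without single arrays (adjusted p up to 0.101). Of 35 myeloid transcription factors 4 were positive and 5 negative. Id3, an inhibitor of helix-loop-helix factors, fell by 1.41 in cultures and differed by 0.32 in GMPs (interaction -1.72, limma adjusted p = 8.5e-05), and the macrophage factor Maf fell by 1.29 in cultures with an interaction of -1.84. Both were dim in WT GMPs, at means of 3.73 and 3.36. Id2 rose by 0.88 in GMPs alone (-1.06).

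Inflammatory genes were split as well, with 6 positive and 5 negative interactions among 38 tested (28.9%, against 4.77% of all genes). Without CreER-Raptor GMP replicate 2 the counts were 1 and 4, and over the settings tried they ran from 1 to 6 and from 3 to 5. Il1b, interleukin-1 beta, read 7.03, 6.84, 9.24 and 7.07 in WT cultures and 4.72, 4.88, 4.79 and 5.46 in CreER-Raptor cultures, with GMP arrays between 3.97 and 5.15. It fell by 2.58 in cultures, and the interaction of -2.22 (limma adjusted p = 0.0189) was -1.65 without WT Lin- + MCSF replicate 3 and was not called without GMP replicate 1 of either genotype or WT GMP replicate 3 (up to 0.0617). Heme oxygenase Hmox1 of the redox list fell by 1.01 in cultures and differed by 0.47 in GMPs without passing (interaction -1.48), and the glutathione synthesis subunit Gclm rose by 1.01 in GMPs alone (-1.03).

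Of 27 tested erythroid genes 18 rose in cultures and 0 fell, and 8 rose in GMPs and 1 fell, where 6.82% and 4.37% of all genes rose. The list had 0 called interactions by limma and a median of 0.30. At an unadjusted p under 0.05 there were 9, and at most 2 were called under the alternatives tried. The mast cell and basophil list had 4 positive and 3 negative interactions among 16 tested (43.8%, against 4.77% of all genes), with a median of -0.42. Its positive members included the chemokines Ccl3 and Ccl4, which are also in the inflammatory list. The counts were 4 and 6 without WT Lin- + MCSF replicate 3, and over the settings tried they ran from 1 to 4 and from 2 to 6. There the high-affinity IgE receptor chain Fcer1a fell by 0.88 in cultures and differed by 0.59 in GMPs without passing (interaction -1.47, limma adjusted p = 0.00715). The summed signal of the list was 12.70 to 12.73 in WT GMPs and 13.11 to 13.25 in CreER-Raptor GMPs, and overlapped between genotypes in cultures.

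CMPs, whose arrays entered neither side of the interaction, gave another reading of the genotype effect. Of 231 genes that fell in GMPs, did not pass in cultures and had a positive interaction, 143 (61.9%) also fell in CMPs, against 5.44% of all genes, and 4 rose. Of 54 genes that fell in both settings and by more in GMPs, 45 fell in CMPs (83.3%). Of 141 genes that rose in GMPs alone, 63 rose in CMPs (44.7%, against 6.01% of all genes). These classes were picked by their call in GMPs. The like share among all genes called in GMPs was not examined. Whether these shares are particular to genes with a called interaction was not tested.

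Of 142 genes that rose in cultures alone, 9 rose in CMPs (6.34%, against 6.01% of all genes) and 20 fell (14.1%, against 5.44%). Of 111 that fell in cultures alone, 1 fell in CMPs (0.901%) and 13 rose (11.7%). No test of the difference between these shares was made, and CMPs and GMPs were both lysed fresh. Gpnmb rose by 4.33 in CMPs, close to its rise of 4.16 in GMPs, Ltf fell by 3.77 there and Camp fell by 3.70. Vcan (0.18), Msr1 (0.18), Atp6v0d2 (0.49) and Ccl22 (-0.02) did not pass in CMPs. Of the 16 genes that rose in GMPs and fell in cultures 8 rose in CMPs and 0 fell, and of the 27 with the reverse order 10 fell and 2 rose.

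**Figure D4:**
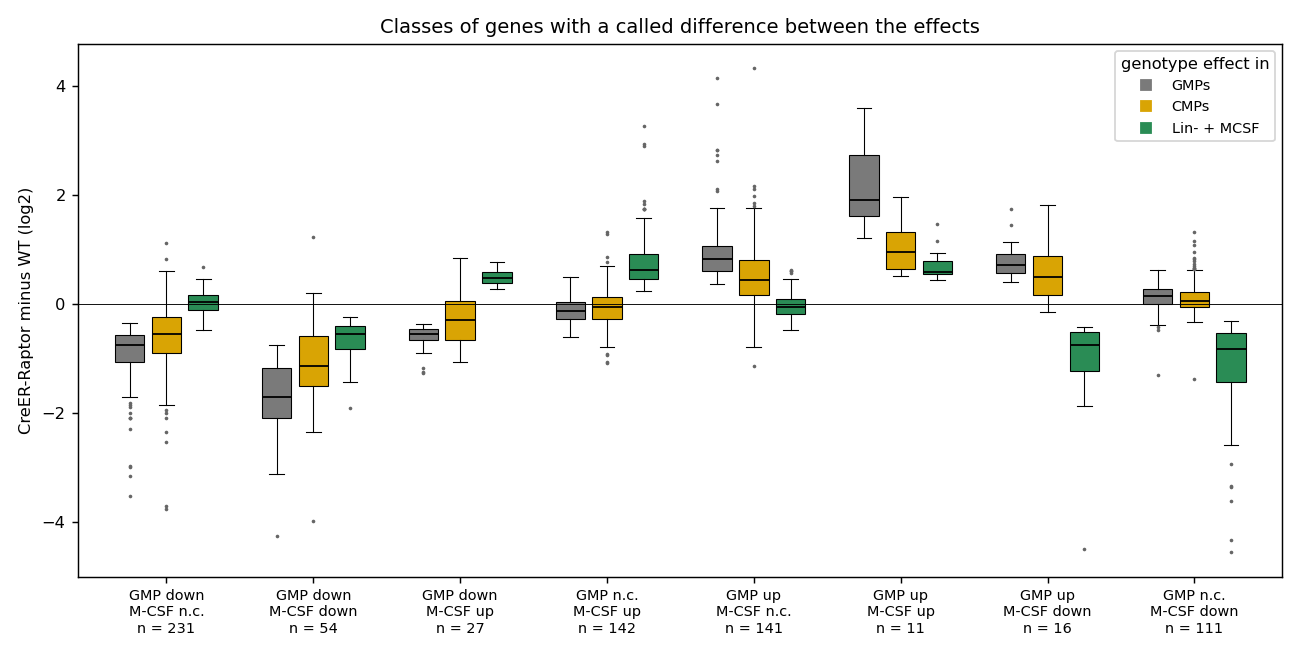
Genotype effect (CreER-Raptor minus WT, log2 units) in GMPs (grey), CMPs (yellow) and Lin- + MCSF cultures (green) for 8 classes of genes with a called interaction, named by their call in GMPs and under M-CSF (n.c., not called). Boxes span the quartiles with a line at the median, whiskers reach 1.5 interquartile ranges and points lie beyond. The CMP boxes lie on the GMP side in the first 2 classes, with medians of -0.56 and -1.13, and near 0 for the classes called in cultures alone, with -0.05 and 0.06.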

How the data were processed

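The deposited values are log2 signals of single-channel arrays made from 1 to 5 ng of amplified total RNA, per the labels' protocols. RMA, Partek 6.6 and limma are listed in the submitters' processing notes without roles. RMA corrects background, equalizes array distributions by quantiles and summarizes probes, so shifts common to most transcripts are lost. Array medians were 4.76 to 4.91. Without scanner files, detection of single probes was not examined.

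The platform annotation pairs 23521 of 41345 probe sets with 1 gene symbol and 1814 with several, and 16010 were unnamed here. The probe set of highest mean was kept for each of 22180 genes, and the 16638 not below the 25th percentile of means (log2 3.86) were tested. With lmFit, contrasts.fit and eBayes, limma 3.58.1 (R 4.3.3) fitted 6 group means over all 20 arrays, with 14 residual degrees of freedom and Benjamini-Hochberg adjustment over 16638 genes for each comparison. Errors after ± are standard errors of that model. A gene is called, or said to have risen or fallen, at an adjusted p under 0.05. The test was checked on simulated data. A two-sided exact permutation test of single genes, with genotype labels exchanged within each setting, is not used for the interaction: its null removes genotype effects that the settings share, so genes that moved alike in both can give large values (Csf1r 0.427, Aif1 0.3), and genes called in opposite directions gave small ones by selection.

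The members and the 36 gene lists (1161 genes, 1012 tested) were chosen with earlier results of these data known. Genes named were drawn from the 12 largest called interactions in each direction and the 5 largest of each class of 20 or more. Further sources were up to 4 members of smallest p and all called members of a list, and a set of core pathway genes. Another 14 were chosen after their values were seen. Not every gene picked by these rules is described. Predicted genes, receptor segments and small RNA genes were counted but not named. Same-numbered GMP and culture arrays were not treated as pairs (correlation of their deviations -0.11 to 0.053 within a genotype). Nor were same-numbered WT and CreER-Raptor arrays of a setting (-0.34 to -0.032 in GMPs and -0.085 to 0.056 in cultures). Deviations from means of 3 or 4 arrays cannot exclude shared mice or batches, and CMP arrays were not checked. The number of arrays limits precision. Alternatives were other filters, probe set rules, normalizations, weights and blocks, and each array left out. Figures were drawn with Python and matplotlib.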

Additional observations from a re-analysis of the deposited data

Results flagged for a closer look

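The genotype effect differed between Lin- + MCSF cultures and GMPs for 793 genes by the test of the difference itself. Of these, 43 were called in opposite directions in the settings, 27 lower in GMPs and higher in cultures and 16 the reverse. The 2 counts were 16 and 9 without WT GMP replicate 2, and 42 and 36 with array weights.

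On 12 of 136 culture groups of 4 arrays, from 68 genes the text describes, 1 array lay farther from the other 3 than Dixon's 95% limit allows (8.82%, where chance gives about 5%). On WT Lin- + MCSF replicate 3, Il1b read 9.24 (others 6.84 to 7.07), Ly6g 9.84 (others 7.18 to 7.62), Mgl2 5.78 (others 7.21 to 7.43), Ern1 8.55 (others 9.05 to 9.09) and Cd3g 6.12 (others 6.65 to 6.73). On WT Lin- + MCSF replicate 1, Ccl22 read 5.85 (others 5.04 to 5.10) and Arap2 6.76 (others 6.49 to 6.53). On WT Lin- + MCSF replicate 4, Il1r2 read 5.48 (others 6.28 to 6.38) and Nupr1 7.71 (others 7.36 to 7.39). On CreER-Raptor Lin- + MCSF replicate 2, Plxnc1 read 9.96 (others 9.71 to 9.75) and Fosb 4.75 (others 4.48 to 4.51). On CreER-Raptor Lin- + MCSF replicate 3, Hspa1a read 3.89 (others 4.41 to 4.44). Groups of 3 GMP arrays were not examined in this way.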

How the results depend on the processing

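No named gene with a called interaction reversed its direction under any alternative, and of 167 such genes 101 kept their call under every one run for them while 66 lost it under at least 1. The interaction count of 793 became 1330 with array weights, and ranged from 488 to 842 when 1 array was left out. The culture count of 2088 became 1316 with array weights and 1138 with weights per population, and ranged from 1634 to 2152 with 1 array left out. The GMP count of 1980 became 5328 with array weights and ranged from 1183 to 2157 with 1 array left out. Replicate numbers are shared between groups, and whether they pair samples is not known. With the number as a replicate block within populations the counts were 572, 1571 and 1529. With 1 block across populations they were 783, 2065 and 1911. Positive interactions made up 56.2% to 67.7% under the alternatives. The spread of GMPs and cultures differed while the fit used a shared estimate, and with only their 14 arrays 610 interactions were called. Genes dim in 1 setting show a compressed difference there, and the number of arrays limits what could be called.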

Other observations

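Antigen presentation genes split within the dendritic cell and MHC class II list, where 2 of 20 tested members had positive and 3 negative interactions (25%, against 4.77% of all genes). The peptide loading chaperone chains H2-DMa and H2-DMb2 fell by 1.10 and 1.07 in GMPs and differed in cultures by -0.23 and 0.04 without passing, while the class II chain H2-Aa rose in GMPs by 1.59 and differed by 0.10 in cultures without passing. Their interactions were 0.87, 1.11 and -1.49 (limma adjusted p = 0.000978, 0.01 and 0.00269).

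Of 25 tested p53 target and Bcl2 family genes 3 had positive interactions (12% called, against 2.93% of all genes) and 0 negative ones, and the counts ran from 1 to 3 and from 0 to 2 over the settings tried. The survival factor Bcl2 fell by 0.80 in GMPs and differed by 0.16 in cultures, an interaction of 0.95 that was 0.52 and did not pass with the mean of its probe sets. Among 36 tested immediate early and ERK feedback genes 11 rose and 0 fell in cultures, where 6.82% of all genes rose, and 6 rose and 2 fell in GMPs, where 4.37% rose. They had 3 positive and 2 negative interactions (13.9%, against 4.77% of all genes), with counts from 1 to 5 and from 1 to 3 over the settings tried. The transcription factor Junb rose by 0.93 in GMPs and differed by 0.09 in cultures without passing (interaction -0.84), and the NF-kB inhibitor Nfkbia rose by 0.87 in GMPs and differed by 0.10 in cultures (-0.77). The unfolded protein response factor Xbp1 rose by 0.67 in GMPs and differed by 0.09 in cultures (-0.58), while its activator Ern1 fell in GMPs. The adhesion molecules Pecam1 and Vcam1 of the stromal and endothelial list fell by 1.06 and 1.01 in GMPs, with interactions of 0.95 and 1.34. The calls of Xbp1 and Vcam1 were lost without single arrays (limma adjusted p up to 0.0657 and 0.0553).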
